A study of Mus musculus with 14 samples.

Results

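The genes described here are 18 protein-coding genes whose RNA was barely detected in cultured mouse T helper 2 (Th2) cells at day 7 and was detected at day 14. They were chosen on the reads themselves, out of 22598 genes in each deposited table. A gene was taken when it stood under 0.5 CPM (the gene's share of all reads counted in a library, times 1000000) in all 8 libraries of day 7 and at 1 CPM or more in all 6 libraries of day 14. Of 11462 genes under the day 7 limit, 21 passed both limits. Il24, Foxf2 and Gm5127 were left out by a rule on symbol prefixes, which also leaves out other interleukin, granzyme, forkhead, chemokine receptor, tumour necrosis factor receptor and adenosine receptor genes. Because day 7 and day 14 values chose the genes, the rise between the days is a description and was given no test.

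The RNA came from CD4+ TCRb+ T cells of C57BL/6J mouse spleens, sorted as naive cells, activated and polarized to Th2 in culture, with wild-type (WT) cells and cells of the Ago134 genotype, a knockout (KO) of Ago1, Ago3 and Ago4. There were 4 libraries of WT and 4 of KO at day 7, and 3 of each at day 14. The 3 genes encode Argonaute proteins, which hold small RNAs that guide them to matching RNA. The labels give no allele, exon or driver of the deletion. Nor do they tie a library to its own mouse or culture, so the p-values measure only the spread between these libraries, which may be technical. The series text calls the mice littermates and also gives the later time a second number.

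Th2 cells are helper T cells that secrete interleukin-4, interleukin-5 and interleukin-13 and serve defence against worms and allergic responses. Gata3 directs the programme. After activation helper T cells divide and then return toward rest, and receptors for lipids, peptides and neighbouring cells tune how they respond. Several of the 18 genes are better known from epithelium, nerve or myeloid cells than from T cells.

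Total counts per library were 23326248 to 35803197. Ago1 had 128 to 141 reads in WT libraries of day 7, 67 to 100 in WT libraries of day 14, none in KO libraries of day 7, and 0, 0 and 2 in KO libraries of day 14. The 16 T cell and Th2 markers summed to 7387 to 13439 CPM over all libraries, and the 8 B cell and plasma cell markers to 0.896 to 4.50 CPM. The Th2 cytokine genes were low within that sum. Il5 and Il13 had 0 reads in WT libraries of day 7, and Il13 had 0 in KO libraries of day 7. In RPKM, the authors' read count scaled to gene length and library size, mean Il4 was 1.98 at day 7 and 9.28 at day 14. Mean Il5 was 0.0302 and 3.91, Il13 0 and 0.105, and Gata3 164 and 159. The sample titles name no sequencing run, so 2 runs were inferred from the identifiers of the deposited tables. Below, run always means these inferred runs. Run 1 held all KO day 7 libraries, WT day 7 libraries 2 to 4 and WT day 14 library 2, and run 2 held the other 6. Some libraries of day 14 stood apart within their group. The 22 genes of G2 and M phase summed to 142, 151 and 1097 CPM in WT libraries 1, 2 and 3, and to 1333, 1673 and 2270 CPM in KO libraries 1, 2 and 3. The 25 genes of resting state and trafficking summed to 9422 CPM in KO library 1, against 5144 to 6176 CPM in the other 5 libraries of that day. Genotype results are therefore also given without WT library 3 and KO library 1, a choice made after the values were seen.

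By known role the 18 genes fall into 5 groups. Surface receptors, ligands and binding proteins hold 7 (Ptger3, Gpr55, Epha2, Pilrb1, Fcmr, Grp and Nptxr). Adhesion and cell polarity hold 4 (Nectin3, Crb3, Magi1 and Sgce), and metabolism and transport hold 3 (Ckmt1, Sugct and Tmem163). Mcf2l and Dmwd act inside the cell in signalling and scaffolding. Ctsh and Serpina3g are a lysosomal protease and a protease inhibitor. The genes lie on 15 chromosomes. Only Fcmr, Tmem163 and Gpr55 on chromosome 1 and Magi1 and Sgce on chromosome 6 share one, and the closest of these, Fcmr and Tmem163, are 3186121 bases apart.

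The stretches upstream of the starts of 5 members are shown, those of the 4 members with the highest mean CPM at day 14 and that of Ptger3, the member called between genotypes. RefSeq promoters (GRCm38.p6, 250 bases before to 50 bases after a start) matched 14 of the 18 genes, with 22 starts among them. Each line below is the 250 bases before a start, 5′ to 3′ on the gene's strand. Capitals in the Mcf2l, Pilrb1, Serpina3g and Dmwd lines mark the letters TGTGGT or their reverse complement ACCACA, the core bound by RUNX proteins, and in the Ptger3 line every CpG. The Mcf2l stretch is chr8:12949173-12949422 (+), before 1 of 6 RefSeq starts of that gene and inside its annotated span, and it is the only one of the 6 whose promoter holds the marked letters.
Mcf2l: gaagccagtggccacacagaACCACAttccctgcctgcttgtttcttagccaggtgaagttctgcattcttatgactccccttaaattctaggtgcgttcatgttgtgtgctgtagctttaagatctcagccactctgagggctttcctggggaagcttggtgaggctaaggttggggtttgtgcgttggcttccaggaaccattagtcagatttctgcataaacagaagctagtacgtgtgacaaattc
The Pilrb1 stretch is chr5:137858050-137858299 (-).
Pilrb1: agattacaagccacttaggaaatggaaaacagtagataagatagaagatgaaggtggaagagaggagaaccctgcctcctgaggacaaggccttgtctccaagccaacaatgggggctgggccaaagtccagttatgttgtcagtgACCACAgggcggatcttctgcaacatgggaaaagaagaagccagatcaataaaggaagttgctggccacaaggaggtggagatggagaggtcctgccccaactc
The Serpina3g stretch is chr12:104235897-104236146 (+).
Serpina3g: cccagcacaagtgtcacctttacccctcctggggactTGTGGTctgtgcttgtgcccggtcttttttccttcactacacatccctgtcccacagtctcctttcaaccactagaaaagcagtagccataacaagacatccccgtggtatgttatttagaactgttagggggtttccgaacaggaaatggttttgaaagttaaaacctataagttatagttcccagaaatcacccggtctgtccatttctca
The Dmwd stretch is chr7:19075950-19076199 (+).
Dmwd: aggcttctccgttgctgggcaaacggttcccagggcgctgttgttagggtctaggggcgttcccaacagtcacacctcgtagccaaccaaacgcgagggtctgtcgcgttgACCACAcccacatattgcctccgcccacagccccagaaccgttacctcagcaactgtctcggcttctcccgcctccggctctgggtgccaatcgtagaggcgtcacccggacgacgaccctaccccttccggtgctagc
The Ptger3 stretch is chr3:157566626-157566875 (+).
Ptger3: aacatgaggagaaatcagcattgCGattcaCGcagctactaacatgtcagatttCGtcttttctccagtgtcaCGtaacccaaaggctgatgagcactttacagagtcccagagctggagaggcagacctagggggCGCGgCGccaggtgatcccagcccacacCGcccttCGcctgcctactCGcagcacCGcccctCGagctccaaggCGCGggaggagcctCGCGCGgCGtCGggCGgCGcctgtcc

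The RUNX letters, searched on both strands, were in 8 of the 22 member promoters (36.4%, exact 95% interval 17.2% to 59.3%) and in 16.8% of all 32851 mouse promoters of that length. The 8 belong to 7 genes, the 4 shown and Ckmt1, Gpr55 and Magi1. The match starts 230 bases before the start in Mcf2l, 104 in Pilrb1, 213 in Serpina3g and 139 in Dmwd. The KLF letters CACCC were in 68.2% of member promoters and 57.5% of all, and the GATA letters AGATAA in 9.09% and 11.2%. No member promoter held the AP-1 letters TGANTCA (7.81% of all), the palindromic STAT motif (6.95% of all) or the FOX letters GTAAACA (3.65% of all). TATAAA was in 1 member promoter, of Ckmt1 (4.55% against 13.6% of all). CpG-island-like composition, taken as over 50% GC with a CpG ratio over 0.6, was found in 31.8% of member promoters and 33.5% of all. Ptger3 had 21 CpG in the stretch shown. Several starts of 1 gene share sequence, the 7 motifs were not tested, and a match describes letters only.

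The rise between the days was seen in every library, as the rule requires, but its size ranged widely. Summed over the 18 genes, the level was 1.99 to 3.94 CPM in each library of day 7. At day 14 it was 91.6, 150 and 243 CPM in WT libraries 1, 2 and 3, and 62.1, 174 and 171 CPM in KO libraries 1, 2 and 3. The lowest library of day 14 was KO library 1, which was also the one with the highest resting state sum. Pooled over libraries of both genotypes, the ratio of day 14 to day 7 CPM was between 6.04 (Crb3) and 1093 (Mcf2l), with a median of 29.8. WT day 7 library 1, the library of run 2 at that day, had 2.09 CPM, and WT day 14 library 2, the library of run 1 at that day, had 150 CPM. The rule set limits in every library, so these values fall with their day by construction and say nothing about run. Since the tissue was a bulk culture, more cells holding a gene's RNA and more RNA per cell cannot be told apart. RNA levels also do not separate transcription from RNA stability. With no symbols left out, 6 genes met the reverse rule, beside the 21 that passed both limits before symbols were left out. These 6 were at 1 CPM or more in every day 7 library and under 0.5 CPM in every day 14 library. They were Adipoq, Alb, Apoa1, Apoa2, Efcab12 and Serpina1e, and the source of their RNA was not tested.

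**Figure D1:**
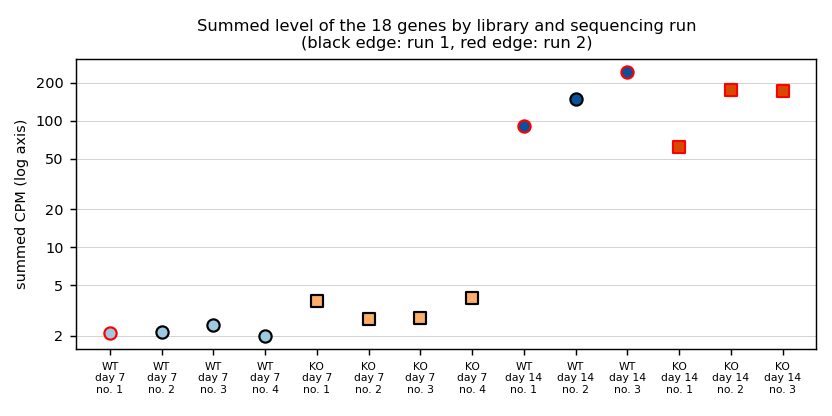
Summed CPM of the 18 genes (vertical log axis) in each of the 14 libraries. Circles are wild type and squares are knockout, light for day 7 and dark for day 14. A black edge marks inferred run 1 and a red edge inferred run 2. All day 7 libraries sit between 1.99 and 3.94 CPM and all day 14 libraries between 62.1 and 243 CPM, a separation that the rule fixes.

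Summed levels of markers of other cell types differed between the groups. The 13 stromal, endothelial and epithelial markers summed to 143 to 175 CPM in WT and 58.9 to 128 in KO at day 7, and to 89.2 to 206 in WT and 122 to 164 in KO at day 14. At day 7 most of that was Pecam1, an adhesion molecule of endothelium and leukocytes. Epcam, an epithelial adhesion molecule, stood at 1.29 to 2.94 CPM at day 7, and at 15.1, 37.8 and 112 CPM in WT and 38.5, 65.8 and 91.1 CPM in KO at day 14. Cdh1, the epithelial cadherin, stood at 0 to 0.0559 CPM at day 7, and at 0, 0.711 and 4.22 CPM in WT and 0.697, 23.4 and 9.42 CPM in KO at day 14. Both epithelial genes were thus higher at day 14 in most libraries, as the 18 genes were, whereas the keratin gene Krt8 stayed at 0.203 CPM or less and Krt18 at 2.30 CPM or less in every library. Pdgfra and Cdh5, markers of fibroblasts and endothelium, were at 0 in all 6 libraries of day 14. Other markers of that list were not, as levels per length show in RPKM, the authors' read count scaled to gene length and library size. Mean Pdgfrb rose from 0.0216 RPKM at day 7 to 0.269 RPKM at day 14. Mean Col1a1 went from 0.0514 to 0.0641 RPKM, Col3a1 from 0.00169 to 0.00538 RPKM and Dcn from 0.00697 to 0.00456 RPKM. The 12 melanocyte and neural markers, mostly Mbp at day 14, summed to 38.4 to 80.0 CPM over all libraries, and the 8 erythroid and platelet markers to 0.465 to 2.36 CPM. The 15 myeloid and dendritic markers summed to 2.88 to 5.61 CPM in WT and 10.3 to 16.8 in KO at day 7, and to 9.91 to 33.5 in WT and 19.9 to 29.1 in KO at day 14. Itgam, Itgax, Clec9a, Xcr1 and Flt3, markers of macrophages or dendritic cells, had 0 reads in all 14 libraries. Adgre1 made up most of the sum at day 14. Other markers of that list were present. From day 7 to day 14 mean Cd68 went from 0.266 to 1.30 RPKM and mean Cd14 from 0.0983 to 0.349 RPKM. Mean Fcgr3 went from 0.727 to 0.604 RPKM, Lyz2 from 0.388 to 0.109 RPKM and Mgl2 from 1.53 to 0.381 RPKM. The 12 mast cell and basophil markers summed to 34.0 to 88.6 CPM at day 7, 3.78 to 7.65 in WT at day 14 and 23.6 to 148 in KO at day 14. Most of that was Cpa3, while Ms4a2, Mcpt1, Mcpt2, Mcpt4 and Mcpt8 were at 0 in all 4 groups. The 9 CD8 T and NK cell markers summed to 16.4 to 34.6 CPM at day 7 and 31.3 to 53.3 at day 14. The part of any such cells in the levels below was not tested.

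**Figure D2:**
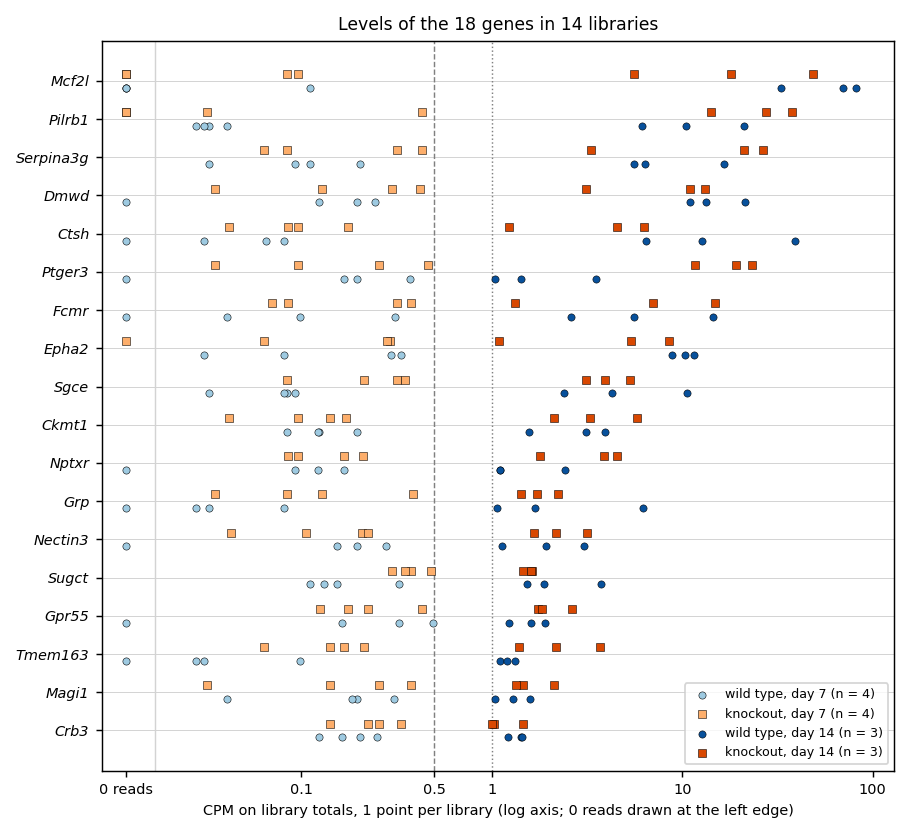
CPM (horizontal log axis) of each of the 18 genes in each of the 14 libraries, 1 point per library, with 0 reads drawn at the left edge and the limits of 0.5 and 1 CPM as dashed and dotted lines. Mcf2l and Pilrb1 show the widest gap between the days, and Crb3 and Magi1 the lowest mean CPM at day 14.

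Mcf2l, the guanine exchange factor also called Dbs, loads GTP onto small GTPases, which shape the actin cytoskeleton. It lies at chr8:12873806-13020905 (+) in GRCm38. At day 7 it had 9 reads over 8 libraries, with 0 reads in 5 of them, 0.112 CPM in WT library 1, and 0.0838 and 0.0959 CPM in KO libraries 1 and 3. At day 14 it stood at 33.1, 70.2 and 82.1 CPM in WT libraries 1, 2 and 3, a mean of 61.8 ± 25.5 (SD, n = 3), and at 5.58, 48.7 and 18 CPM in KO libraries, a mean of 24.1 ± 22.2 (SD, n = 3). It had the highest CPM of the 18 genes in all 3 WT libraries, and the genotypes overlapped through KO library 2 alone. Per length it moved from rank 42 to rank 16 of 46 listed exchange factors of the Dbl and DOCK families, from a mean of 0.00340 to 4.36 RPKM (the authors' read count scaled to gene length and library size). It stayed far below Arhgef1, the most abundant of them at 310 RPKM at day 14.

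Pilrb1 encodes an activating receptor of the paired immunoglobulin-like type 2 family, known from myeloid and NK cells, where it pairs with the adaptor DAP12 (gene Tyrobp). It lies at chr5:137852147-137858106 (-). At day 7 it had 1 read in each WT library (0.0279 to 0.0407 CPM) and 0, 0, 1 and 10 reads in KO libraries 1 to 4 (0, 0, 0.0320 and 0.429 CPM). At day 14 it stood at 6.15, 10.5 and 21 CPM in WT, a mean of 12.6 ± 7.64 (SD, n = 3), and at 14.2, 27.7 and 37.7 CPM in KO, a mean of 26.5 ± 11.8 (SD, n = 3). Per length it was the highest of the 18 genes at day 14, with a mean of 12.4 RPKM, and moved from rank 9 to rank 4 of 27 listed paired and activating receptors and adaptors. Its inhibitory partner Pilra had mean levels of 0.101 CPM in WT and 0.176 CPM in KO at day 14, and the sister gene Pilrb2 of 0.786 and 0.441 CPM. Tyrobp was close to 0, with means of 0.0107 CPM in WT and 0.0332 CPM in KO at day 14. Hcst (DAP10) and Fcer1g are other adaptors on that list. Hcst had means of 24.8 CPM in WT and 29.7 CPM in KO at day 14, and Fcer1g a mean of 0.0143 RPKM. Whether Pilrb1 pairs with either was not tested. Reads that fit Pilrb1 and Pilrb2 equally could have been dropped or split in counting, so the level of each is uncertain.

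Ptger3 encodes EP3, a receptor for prostaglandin E2 that lowers cyclic AMP. It lies at chr3:157566892-157645888 (+). Its day 7 levels reached 0.371 CPM in WT and 0.461 CPM in KO, which put it among the genes nearest to the day 7 limit. At day 14 it stood at 1.04, 1.42 and 3.51 CPM in WT, a mean of 1.99 ± 1.33 (SD, n = 3), and at 11.7, 19.2 and 23.1 CPM in KO, a mean of 18 ± 5.80 (SD, n = 3). All KO libraries lay above all WT libraries, and WT library 1 was only just inside the limit of 1 CPM. The pooled ratio of day 14 to day 7 was 10.4 in WT and 93.0 in KO.

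Epha2, a receptor tyrosine kinase for ephrin-A ligands on neighbouring cells, lies at chr4:141301240-141329384 (+). Its day 14 levels were 10.3, 11.6 and 8.79 CPM in WT, a mean of 10.2 ± 1.39 (SD, n = 3), and 1.10, 8.52 and 5.38 CPM in KO, a mean of 5.0 ± 3.73 (SD, n = 3). All KO libraries lay below all WT libraries, with KO library 2 close to WT library 3. Fcmr, the receptor for the Fc part of IgM, stood at 2.61, 5.59 and 14.5 CPM in WT and 1.33, 7.06 and 14.8 CPM in KO. Library 3 was the highest and library 1 the lowest in both genotypes, and the means were close, 7.56 ± 6.17 and 7.72 ± 6.75 (SD, n = 3). Gpr55, a receptor for lysophosphatidylinositol, had 0.495 CPM in WT day 7 library 3, the member value nearest to that limit, and 1.23 to 2.63 CPM over the 6 libraries of day 14.

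Grp encodes the secreted gastrin-releasing peptide, and it was the ligand among the 18 genes. It stood at 1.68, 1.07 and 6.22 CPM in WT and 1.43, 1.73 and 2.23 CPM in KO at day 14, so WT library 3 lay apart from the other 5. Nptxr, a membrane pentraxin known from synapses, stood at 1.11, 1.10 and 2.42 CPM in WT and 1.79, 4.53 and 3.89 CPM in KO, with an overlap between WT library 3 and KO library 1. It overlaps Npcd on the same strand, so reads of the pair could not be told apart where they coincide.

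Ctsh encodes cathepsin H, a cysteine protease that trims peptides in the lysosome, and lies at chr9:90054152-90076089 (+). At day 7 it had 0 to 0.0814 CPM in WT and 0.0419 to 0.176 CPM in KO. At day 14 it stood at 6.47, 12.7 and 39.0 CPM in WT, a mean of 19.4 ± 17.3 (SD, n = 3), and at 1.23, 4.53 and 6.30 CPM in KO, a mean of 4.02 ± 2.57 (SD, n = 3). The highest KO library was just under the lowest WT library. Serpina3g, also called Spi2A, is an inhibitor of serine proteases and cysteine cathepsins known from activated and memory T cells. It lies at chr12:104236245-104241939 (+) and stood at 5.61, 6.4 and 16.5 CPM in WT, a mean of 9.51 ± 6.09 (SD, n = 3), and at 3.32, 21.2 and 26.6 CPM in KO, a mean of 17.1 ± 12.2 (SD, n = 3). KO library 1 was below every WT library and KO libraries 2 and 3 were above every one. Serpina3g belongs to a cluster of similar genes, so its counts are uncertain where copies share sequence.

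Dmwd, a WD-repeat protein encoded at chr7:19076227-19082776 (+), stood at 11.1, 13.3 and 21.4 CPM in WT, a mean of 15.2 ± 5.45 (SD, n = 3). In KO it stood at 3.12, 13.1 and 11 CPM, a mean of 9.10 ± 5.28 (SD, n = 3), with KO library 1 far below the rest. Among the adhesion genes, Sgce, the epsilon subunit of the sarcoglycan complex, was highest in WT library 3 at 10.6 CPM, with 2.40 and 4.30 CPM in WT libraries 1 and 2 and 3.13 to 5.31 CPM in KO. Nectin3, a cell adhesion molecule of the immunoglobulin family, ranged from 1.13 to 3.18 CPM over day 14. Crb3, a Crumbs polarity protein, ranged from 1.00 to 1.46 CPM, and Magi1, a scaffold of epithelial junctions, from 1.04 to 2.12 CPM. These 2 genes had the lowest mean CPM of the 18 at day 14, per length at 1.32 and 0.140 RPKM.

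Tmem163, a zinc transporter of intracellular vesicles, stood at 1.11, 1.2 and 1.32 CPM in WT, a mean of 1.21 ± 0.107 (SD, n = 3), and at 1.39, 3.69 and 2.18 CPM in KO, a mean of 2.42 ± 1.17 (SD, n = 3). All KO libraries lay above all WT libraries, the lowest by a narrow margin. Ckmt1, the mitochondrial creatine kinase, ranged from 1.57 to 5.81 CPM over day 14. Sugct, a mitochondrial CoA transferase of glutarate breakdown, was at 3.74 CPM in WT library 3 and at 1.46 to 1.87 CPM in the other 5 libraries. Annotated genes overlap Ckmt1 (Strc), Crb3 (Slc25a23 and Dennd1c), Tmem163 (Mgat5) and Sugct (Mplkip) on the other strand. Whether reads were counted by strand is not given in the sources read for this text, so reads of such pairs cannot be told apart.

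The limits themselves were sharp for a few genes. Just inside the day 14 limit were Crb3, Magi1 and Ptger3, with lowest levels of 1.00, 1.04 and 1.04 CPM. Just outside it were Gja1 (0.974 CPM), Ctnna2 (0.970 CPM) and Prph (0.966 CPM). Just inside the day 7 limit were Gpr55, Sugct and Ptger3, with highest levels of 0.495, 0.480 and 0.461 CPM, and just outside it F2rl2 (0.524 CPM), Pigz (0.531 CPM) and Myo3b (0.544 CPM).

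Knockout was compared with wild type at day 14 to see which of the 18 genes differed by genotype once on. Ptger3 was higher in KO, by 9.05-fold in mean CPM, and none of the 18 was called lower. The floor of 1 CPM in both genotypes leaves out genes that were on in only 1 of them, so genes with larger differences may have been left out. With edgeR's quasi-likelihood test over 11591 genes and a Benjamini-Hochberg adjusted p under 0.05, 1 of 18 members was called higher (background 0.845%) and 0 of 18 lower (background 0.578%). Over all tested genes 98 were higher and 67 lower, 1.42% in either direction. At an unadjusted p under 0.05, 2 of the 18 members passed, Ptger3 and Ctsh, against 21.7% of all genes. The estimates were above 0 for 10 members and below 0 for 8, with a median log2 fold change of 0.14 beside 0.01 over all tested genes.

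For Ptger3 the log2 fold change was 3.18 ± 0.73 (SE) and edgeR's adjusted p was 0.0457, and the call was kept in 9 of 16 alternatives. Among the 9 is the fit without WT library 3 and KO library 1, which was chosen after the values were seen. Ptger3 was higher in 3 of 3 KO libraries than in any WT library. The call was lost without WT library 1 (edgeR's adjusted p = 0.175), without WT library 2 (0.122), without KO library 3 (0.183), with sequencing run as a term (0.0944), with no filter on low counts (0.0526) and with only day 14 libraries (0.236), among others, while the log2 fold change stayed between 2.89 and 4.08 over the 16. Leaving out WT library 2 also leaves only run 2 at day 14, and the log2 fold change was then 3.00. Mast cell and basophil markers and G2 and M phase genes also had higher sums in every KO library than in any WT library of day 14, as given above, and their part in the result was not tested. Over the libraries of day 14 the G2 and M phase sums had the same order as the Ptger3 levels. Across the days that order did not hold. At day 7 the G2 and M phase sums were 125 to 256 CPM, where Ptger3 was at 0.461 CPM or less. In WT libraries 1 and 2 of day 14 they were 142 and 151 CPM, with Ptger3 at 1.04 and 1.42 CPM. The highest mast cell sum, 148 CPM, was in KO library 1, which had the lowest Ptger3 level of the KO libraries. At day 7 the mast cell markers, mostly Cpa3, summed to 34.0 CPM or more in every library, where Ptger3 was at 0.461 CPM or less. What these values mean for the source of the Ptger3 difference was not tested.

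**Figure D3:**
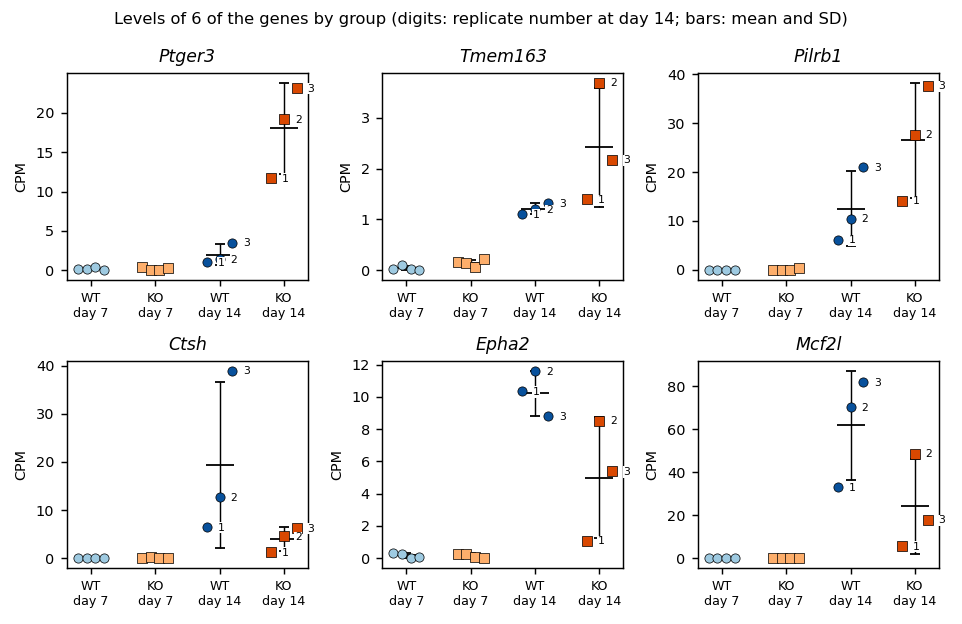
CPM (vertical linear axis, a separate scale per gene) of 6 of the genes in the 4 groups, 1 point per library with the replicate number at day 14, and bars for the mean and SD. KO libraries of day 14 lie wholly above WT for Ptger3 and Tmem163 and wholly below for Ctsh and Epha2, and overlap with WT for Pilrb1 and Mcf2l.

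The other members did not pass the test. Ctsh had a log2 fold change of -2.23 ± 0.68 (SE) with edgeR's adjusted p = 0.0954, and an interval for the difference of -3.55 to -0.91. DESeq2 called it lower (adjusted p = 0.0283). Mcf2l had -1.37 ± 0.69 (adjusted p = 0.266 with edgeR), Epha2 -1.05 ± 0.74 (0.424), Dmwd -0.74 ± 0.67 (0.539), Grp -0.73 ± 0.68 (0.553) and Sugct -0.63 ± 0.42 (0.391). On the positive side stood Nptxr at 1.14 ± 0.57 (adjusted p = 0.256 with edgeR), Pilrb1 at 1.09 ± 0.68 (0.361), Tmem163 at 0.97 ± 0.51 (0.283), Serpina3g at 0.88 ± 0.69 (0.474) and Ckmt1 at 0.38 ± 0.47 (0.670). With limma-voom Pilrb1 was called higher (log2 fold change 1.77, adjusted p = 0.0136). The remaining 6, Gpr55, Magi1, Nectin3, Fcmr, Crb3 and Sgce, lay between -0.51 and 0.37. For Fcmr, whose estimate of 0.08 was the closest to 0, the interval ran from -1.60 to 1.77, so a difference of more than 3-fold either way was within it.

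The libraries of the genotypes did not overlap for 4 members. Ptger3 and Tmem163 were higher in all KO libraries (2 of 18, background 12.4%) and Ctsh and Epha2 lower in all (2 of 18, background 5.24%), where 17.6% of all genes did not overlap in either direction. By role, 1 of 7 receptors, ligands and binding proteins was called, and 0 of 4 adhesion, 0 of 3 metabolic, 0 of 2 signalling and 0 of 2 protease genes. The log2 estimates were below 0 for Mcf2l and Dmwd and for 2 of 7 receptors and ligands, Epha2 and Grp. Of the protease and the protease inhibitor, Ctsh had the lowest estimate of all 18 genes and Serpina3g the fifth highest. With WT library 3 and KO library 1 both left out, Ptger3 had a log2 fold change of 4.08 (edgeR's adjusted p = 0.00572). Nptxr at 1.90 (0.0378) and Serpina3g at 1.98 (0.0258) were then called higher too, while edgeR called 2134 of 11706 genes, 18.2%, in either direction.

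**Figure D4:**
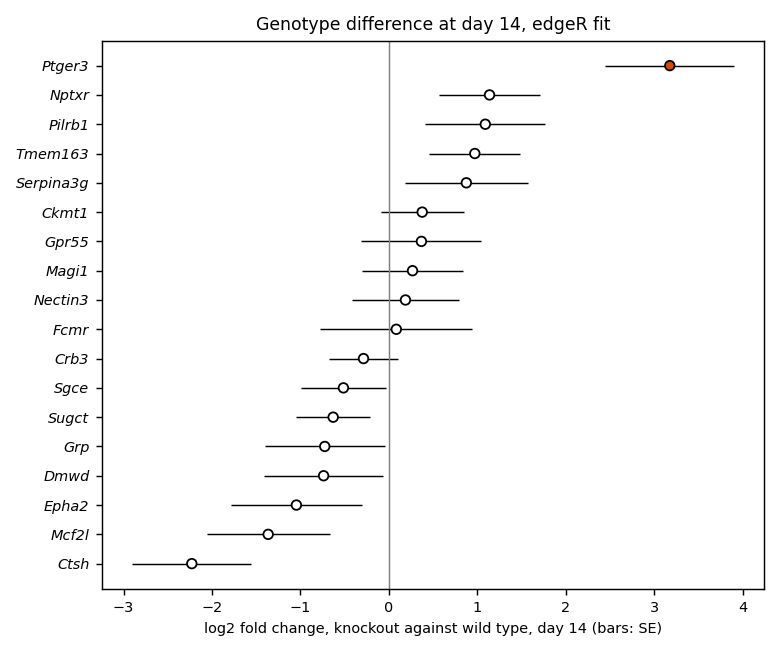
Log2 fold change of knockout against wild type at day 14 (horizontal axis) for each of the 18 genes from the edgeR fit, with bars for the SE and a filled point for an adjusted p under 0.05. Ptger3 at 3.18 is the filled point, and Ctsh at -2.23 is the lowest.

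The members' order over the 6 libraries of day 14 was not the same. WT library 3 was the highest of the 6 for 6 members and the lowest for none. KO library 1 was the lowest for 7 members and the highest for 2. KO library 3 was the highest for 7 and the lowest for 1, and WT library 1 the highest for none and the lowest for 6. The ratio of the highest to the lowest library within a genotype had a median over members of 2.49 in WT and 2.59 in KO, and reached 6.02 for Ctsh in WT and 11.1 for Fcmr in KO.

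At day 7 no member was called between the genotypes (edgeR's smallest adjusted p = 0.155, for Sgce), with 3 at an unadjusted p under 0.05. Over all genes edgeR called 11, or 0.0949% (0.0518% higher and 0.0431% lower in KO), and 23.4% passed unadjusted. All members were under 0.5 CPM there, so differences of this size rest on few reads. For the interaction of genotype and day, edgeR called no member (smallest adjusted p = 0.396, for Ptger3) and 10 genes in all, or 0.0863% (0.0604% above 0 and 0.0259% below). At an unadjusted p under 0.05 there were 5 members, beside 7.97% of all genes. The genotype difference of Ptger3 at day 14 was thus not shown to differ from that at day 7, where its log2 fold change was 0.10 ± 0.81 (SE).

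Genes beside the members on the chromosome were read off in the same libraries. Of 99 genes with a row in the tables within 100 kb of a member, 5 (5.05%) were also under 0.5 CPM in all day 7 libraries and had a mean of at least 0.5 CPM at day 14, beside 293 of the 22580 genes other than members (1.30%). This limit was chosen after the values were seen, and neighbours of 1 member are not independent. Among the 5, Il24 passed both limits of the rule itself and was left out by its symbol. Pilrb2 and Serpina3f are sister genes of the members beside them, so reads of shared sequence make these counts uncertain. Il24, which encodes a cytokine of the interleukin-10 family, begins 1283 bases beyond Fcmr on chromosome 1 and had 1.79, 7.01 and 49.6 CPM in WT and 1.26, 6.76 and 22.0 CPM in KO. Its order over libraries within each genotype was that of Fcmr, lowest in library 1 and highest in library 3. Il19, 51865 bases from Fcmr and in the same cytokine family, reached 1.00 CPM.

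Serpina3f, 15116 bases from Serpina3g, had 0 reads in all 8 libraries of day 7. It stood at 0.393, 0.226 and 3.54 CPM in WT and 4.08, 11.2 and 11.8 CPM in KO at day 14. All KO libraries lay above all WT libraries, with a log2 fold change of 2.73 ± 0.98 (SE) and edgeR's adjusted p = 0.170. Six5, a homeobox gene 11818 bases from Dmwd, stood at 2.83, 2.91 and 1.87 CPM in WT and 0.166, 1.70 and 0.745 CPM in KO. WT was above KO in every pair of libraries, and the log2 fold change of -1.57 ± 0.69 (SE) had edgeR's adjusted p = 0.212. Pilrb2, 7721 bases from Pilrb1, had its day 14 levels between 0.358 and 1.07 CPM.

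**Figure D5:**
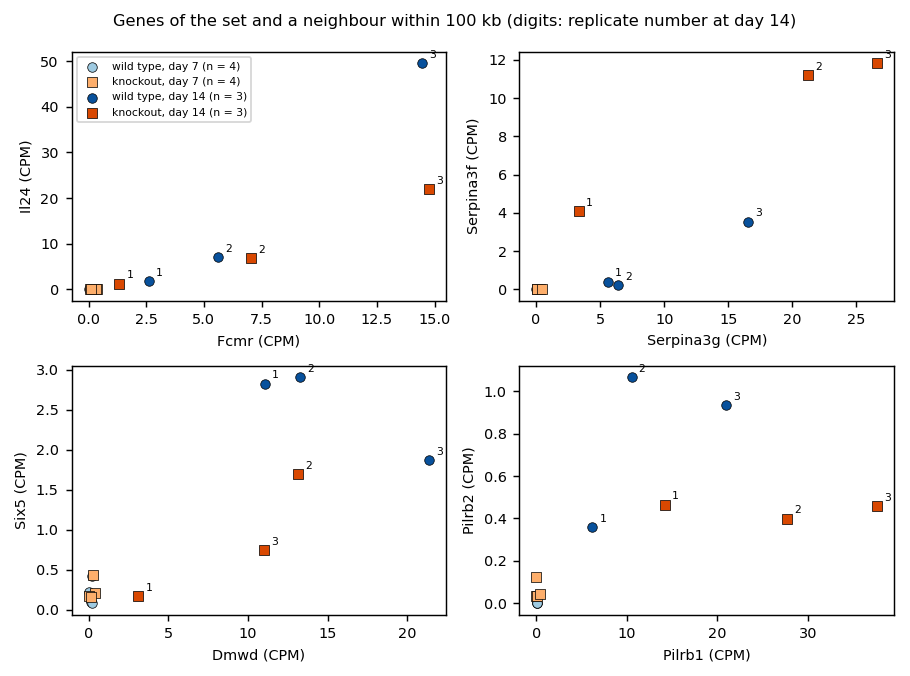
CPM of a neighbouring gene (vertical axis) against CPM of the member it lies beside (horizontal axis) in the 14 libraries, 1 point per library with the replicate number at day 14. Day 7 libraries sit near the origin in all 4 panels, and Il24 is highest where Fcmr is highest, in libraries 3 of both genotypes.

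The pathways that Mcf2l and Pilrb1 belong to were measured over lists drawn up with earlier results of these data known. Of 41 tested exchange factors edgeR called none in either direction at day 14, with 8 at an unadjusted p under 0.05 (21.7% of all genes) and a median log2 fold change of -0.50 beside 0.01 over all genes. Arhgef1, the most abundant, had means of 2580 ± 995 CPM in WT and 1561 ± 621 CPM in KO (SD, n = 3). Of 9 tested paired and activating receptors and adaptors edgeR called none, also at an unadjusted p under 0.05, with a median of 0.21. Their most abundant gene in CPM, the immunoglobulin-like receptor Lilr4b, stood at 28.6, 19.6 and 301 CPM in WT at day 14 and at 62.4 to 106 CPM in KO, against means of 7.22 and 16 CPM at day 7.

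Other lists describe the state of the cells in which the 18 genes were on. Of 22 G2 and M phase genes edgeR called 2 higher in KO at day 14 and none lower (0.845% and 0.578% of all genes), with 11 at an unadjusted p under 0.05 (21.7% of all genes) and a median log2 fold change of 1.84. Cdc20, an activator of the anaphase-promoting complex, had a log2 fold change of 2.33 ± 0.44 (SE, edgeR's adjusted p = 0.0209), and Plk1, a mitotic kinase, of 2.51 ± 0.55 (SE, 0.0362). Of 31 interferon-stimulated genes edgeR called none, with 1 at an unadjusted p under 0.05, beside the same 21.7%, and a median of 0.62. Of the genes of all pathway lists, none was called without WT library 2, beside 0.45% of all genes. Without WT library 3, 43 were called, beside 22.5% of all genes, so the count moved with the whole fit.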

How the data were processed

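Bulk RNA was sequenced from 14 libraries in 4 groups, taken with their replicate numbers from the sample titles. The submitters' processing notes name GSNAP (version 2013-11-01) and GRCm38. Which tool and annotation gave the counts is not given in the sources read here. The authors deposited, per the file headers, a whole-number count of reads, an RPKM value and a gene width for each of 22598 genes per library. Of the widths, 86.7% were multiples of 3, so most are coding lengths. Symbols (22457 genes) and coordinates came from GENCODE vM21, and promoters from RefSeq.

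CPM was computed on library totals, and RPKM values served only to compare levels between genes. Counts were fitted with edgeR 4.0.16 and limma 3.58.1 in R 4.3.3: filterByExpr (11591 genes), TMM scaling, a robust quasi-likelihood fit of 4 group means to the 14 libraries, and Benjamini-Hochberg adjustment. The SE is the log2 fold change divided by the square root of the F statistic, and intervals are 1.96 SE either way. The fit was tested on simulated data. No 2 libraries of a group held the same counts (chi-square per gene 21.7 to 499). Alternatives were RLE scaling, library totals, other filters, DESeq2 1.42.0, limma-voom, libraries of 1 day, a replicate block, a run term, other limits and leaving out libraries.

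The members, the 6 pathway and 8 cell type lists and the tests were chosen with earlier results of these data known. Named members were Mcf2l, Pilrb1, the called, the 8 most abundant, the 6 highest and 6 lowest by genotype, those without overlap, and the 3 genes on each side of each limit. Of lists, up to 4 called genes and the most abundant were named. The genotype results of 2 pathway lists are not reported here. Intervals of shares cover counting error only. Naive samples named in the series text are not analysed here.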

Additional observations from a re-analysis of the deposited data

Results flagged for a closer look

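Among 36 groups of 4 libraries at day 7, 2 held a library far from the other 3, where the gap divided by the range passed Dixon's 95% critical value. Chance gives about 1 in 20 groups. Mcf2l stood at 0.112 CPM (4 reads) in WT day 7 library 1 and at 0 in the other 3. Pilrb1 stood at 0.429 CPM (10 reads) in KO day 7 library 4 and between 0 and 0.0320 CPM in the other 3. Groups of 3 at day 14 were not checked in this way.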

How the results depend on the processing

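The day 14 call rests on Ptger3, called in 9 of 16 alternatives. Among the 9 is the fit without WT library 3 and KO library 1, chosen after the values were seen. Without a filter on low counts 0 members were called (Ptger3 adjusted p = 0.0526 with edgeR), with only day 14 libraries 0 (0.236) and with a run term 0 (0.0944). DESeq2 called 2 (Ptger3 and Ctsh), limma-voom 2 (Ptger3 and Pilrb1) and the fit without WT library 3 and KO library 1 called 3. Leaving out 1 library gave 0 to 1. Over all genes the count of 165 became 248 with library totals, 993 with DESeq2, 1959 with limma-voom, 0 with day 14 libraries only (so that fit calls nothing anywhere), 79 with a run term, 2134 without both libraries and 42 (without KO library 3) to 2640 (without WT library 3) with 1 left out. Of the pathway lists' genes 5 were called, and 11 with DESeq2, 39 with limma-voom, 0 with day 14 libraries only, 3 with a run term, 39 without both libraries and 0 to 43 with 1 left out. At day 7 limma-voom called 3 members and the other settings 0. The share of all genes that limma-voom called at day 7 is not given here, so the 3 are not a result about the members. At day 14 it called 16.9% of all genes. Same-numbered WT and KO libraries of a day had correlations of deviations from -0.17 to 0.67, and 6 of 14 libraries correlated best with their own number, so the numbers were not taken as pairs. With the replicate block 1 member was called, Ctsh, lower (log2 fold change -2.26, adjusted p = 0.0284 with edgeR), and Ptger3 had 0.0505. The block gave 236 genes in all and 11 of the lists. The 18 genes became 5 with a day 7 limit of 0.25 CPM, 5 with a day 14 limit of 2 CPM, 88 on WT libraries only, 86 on KO libraries only, 18 to 29 with 1 library left out (29 without KO day 14 library 1), and 21 (16 shared) on TMM-scaled totals. The members' median log2 fold change was -0.21 to 0.40 with 1 library left out and 0.58 without both. At day 7 each member rests on few reads.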
